A study of Rattus norvegicus with 18 samples.

Results

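The 6 colonies that the submitters typed as expressing osteocalcin were compared, as 1 group, with the 3 colonies typed as expressing neither osteocalcin nor adipsin. These 9 colonies are all the colonies of the series, and the rule for the pooling was the label alone. Of the 6, 3 were labelled for osteocalcin without adipsin ("osteocalcin I" to "III") and 3 for both markers ("both I" to "III"). The remaining colonies are "neither I" to "III". Every colony grew from 1 flow-sorted cell of fetal rat calvaria, the flat bones of the skull, in primary culture. All 3 types shared the same 4 weeks at 37 C in 5% CO2 in alpha-MEM with fetal bovine serum, ascorbic acid, BGP and Dex, the last 2 abbreviated so in the labels. RNA came from 100 to 300 cells of a single colony and was amplified before labelling. Each colony was read on 2 Affymetrix arrays, chip A (RAE230A) and chip B (RAE230B), 18 arrays in all. The animals' strain and age, and whether colonies came from separate cell preparations, are not stated in the labels. The p-values measure the spread between these colonies.

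Osteocalcin is a small protein that mature osteoblasts, the bone-forming cells, secrete into the matrix. Adipsin is a protease secreted by adipocytes. Osteoblasts and adipocytes both arise from mesenchymal precursors, and cells of the calvaria can take either path in culture. The pooled comparison asks which transcripts accompany the osteocalcin label whether or not adipsin is present.

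Levels below are log2(signal + pseudocount), after each array was rescaled to a trimmed mean of 1500, a scale that understates the change of dim probe sets. A probe set was called when limma's Benjamini-Hochberg adjusted p was under 0.05 over 19314 probe sets of both chips. Precision was limited by the number of arrays, with a median standard error of 0.428 for a pooled difference. Some arrays stood apart. The chip A array of osteocalcin I was deposited at a trimmed mean of 64.4 instead of 1500, neither II had a GAPDH 3′/5′ ratio of 2.08 and 2.12 on the chips where the other colonies had 8.64 to 16.4, its actin 3′/5′ ratio on chip B was 48.7 where the others had 5.32 to 17, and neither III correlated least with the other colonies. The neither arrays also had more signal in dim probe sets and in spike-in controls. On chip A the 25th-percentile signal was 263.8 to 334.8 in the neither colonies and 217.9 to 251.3 in the expressing colonies, with no overlap. On chip B it was 326.9 to 408.4 and 301.7 to 356.6. The mean log2 signal of the spike-in controls was 15.5 to 17.56 against 13.3 to 15.9 on chip A and 16.65 to 17.97 against 15.17 to 17.6 on chip B. The part of these array differences in the results below was not tested.

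The array did not separate the colonies by the transcript of the marker itself. The osteocalcin gene Bglap gave a dim signal throughout, and its level was 8.02, 8.1 and 8.2 (lowest, median and highest) in the 6 expressing colonies. It was 8.14, 8.22 and 9.07 in neither I, II and III. The groups overlapped, and the pooled difference was -0.37 (SE 0.905, adjusted p = 0.902 by limma). Its signal lay between the 1.29 and 4.37 percentiles of the arrays of the expressing colonies. The other defining osteoblast transcripts Ibsp (bone sialoprotein) and Alpl (tissue non-specific alkaline phosphatase) were above the array median in 0 of 9 colonies and were not tested. Cfd, which encodes adipsin, differed by 0.15 (SE 0.54, adjusted p = 0.936). The names of the groups below therefore rest on the submitters' typing and not on these arrays.

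A total of 5 probe sets (0.0259% of the 19314 tested) were called higher in the osteocalcin-expressing colonies and 0 (0%) were called lower. At an unadjusted p under 0.05, limma gave 1240 higher and 950 lower. The 5 were those of Acat1, Ppp6r1, Lpcat3, Mmp23 and a chip B probe set with no gene name, 1379263_at. All 5 rose by 1.84 to 2.23 log2 units, and in each the 6 expressing colonies lay above all 3 neither colonies. All but Mmp23 were above the array median in 0 of the 3 neither colonies. They passed the filter only through the expressing colonies, so their direction is by itself no support for a difference. RNA of a whole colony was read at once, so fewer cells of a type and less RNA per cell cannot be told apart. With 6 against 3, an exact two-sided permutation test of 1 gene cannot give a p under 0.0238. These calls were close to the threshold: leaving out any 1 of the 6 expressing colonies left 0 calls, as did a fit with 3 group means. Without neither I, II or III there were 18, 32 and 7 calls, of which 2, 4 and 3 were among these 5.

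Acat1 encodes the mitochondrial acetoacetyl-CoA thiolase of ketone body and isoleucine breakdown. Its level was 10.79, 11.36 and 11.68 (lowest, median and highest) in the expressing colonies, and 9.54, 9.43 and 9.35 in neither I, II and III. The neither colonies lay close to each other and 1.25 below the lowest expressing colony, osteocalcin I. The means were 11.3 ± 0.296 (SD, n = 6) and 9.44 ± 0.0965 (SD, n = 3), a difference of 1.86 (SE 0.268, 3.63-fold, limma adjusted p = 0.0423). Over 26 alternative settings the difference ran from 1.18 to 2.32, always higher, with adjusted p from 0.0231 to 0.752. A second, dimmer Acat1 probe set on chip B differed by 0.5 (SE 0.476, adjusted p = 0.704).

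Lpcat3 encodes a membrane-bound acyltransferase that places polyunsaturated fatty acids into phospholipids. Its level was 10.68, 10.98 and 11.07 in the expressing colonies, and 8.98, 8.88 and 9.38 in neither I, II and III. The 6 expressing colonies lay close to each other and did not overlap the neither colonies. The difference was 1.84 (SE 0.268, 3.59-fold, limma adjusted p = 0.0423). Its other probe set differed by 0.42 (SE 0.575).

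Ppp6r1 encodes a regulatory subunit of protein phosphatase 6. Its level was 10.56, 10.85 and 11.12 in the expressing colonies, and 8.88, 9.13 and 8.91 in neither I, II and III. The gap between the groups was 1.43 and the difference 1.88 (SE 0.273, 3.68-fold, limma adjusted p = 0.0423). A brighter Ppp6r1 probe set on chip B, at the 96.7 percentile of its arrays, gave -0.09 (SE 0.33), so the probe sets of this gene disagreed.

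Mmp23 encodes a membrane-anchored matrix metalloprotease. Its called chip B probe set was at 12.94, 13.44 and 14.52 in the expressing colonies, and at 10.8, 10.97 and 12.04 in neither I, II and III. Osteocalcin III stood above the other expressing colonies and neither III above the other neither colonies. The difference was 2.23 (SE 0.382, 4.69-fold, limma adjusted p = 0.0499). On chip A another Mmp23 probe set gave 1.71 (SE 0.377, adjusted p = 0.213), also without overlap, and another on chip B gave 0.14 (SE 0.514). The unnamed 1379263_at was at 11.71, 12 and 12.48 in the expressing colonies, and at 9.68, 10.06 and 9.76 in neither I, II and III. Its difference was 2.22 (SE 0.349, limma adjusted p = 0.0423), and it was past the threshold in more of the alternative settings than any of the 4 named genes, 9 of 25.

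Fluidics station divided the groups unevenly. On chip A all 3 neither arrays and both III were run on 1 station, where the differences were 1.99 for Acat1, 1.92 for Ppp6r1 and 1.71 for Lpcat3. On chip B both stations held both groups, and Mmp23 differed by 2.47 (3 against 1 colony) and 2.22 (3 against 2). With station as a block the adjusted p values were 0.397, 0.411, 0.439 and 0.0843, and 0 probe sets were called. On chip A the block in effect compared both III alone with the neither colonies. It made the differences of several chip A genes described below smaller. Cntfr went from -1.74 to -0.79, Ctsa from 1.61 to 1.05 and Cpt1a from -1.07 to -0.76. Fam83f went from -1.14 to -0.72, Mbl2 from -1.68 to -0.8 and Hspa1a from -0.87 to -0.35. Other differences grew, such as those of Dgat1 (1.04 to 2.11) and Ndufv2 (1.77 to 2.52).

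The promoters of the 4 named genes are printed to show the DNA in front of the transcripts that were higher in all 6 expressing colonies. They run 5′ to 3′ from 250 bases before to 50 after the RefSeq start in GRCr8, and capitals mark matches on either strand to CCAAT or GGGCGG (the GC box). Acat1 is at chr8:62904993-62905292 on the minus strand and Ppp6r1 at chr1:78219380-78219679 on the plus strand. Lpcat3 is at chr4:159154440-159154739 on the plus strand and Mmp23 at chr5:171524485-171524784 on the minus strand.
Acat1: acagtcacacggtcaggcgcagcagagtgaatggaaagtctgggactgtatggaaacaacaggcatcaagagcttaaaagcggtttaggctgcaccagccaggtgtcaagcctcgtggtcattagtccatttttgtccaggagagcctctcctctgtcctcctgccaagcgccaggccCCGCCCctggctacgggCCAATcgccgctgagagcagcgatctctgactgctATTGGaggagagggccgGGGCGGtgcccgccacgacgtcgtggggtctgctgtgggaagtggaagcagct
Ppp6r1: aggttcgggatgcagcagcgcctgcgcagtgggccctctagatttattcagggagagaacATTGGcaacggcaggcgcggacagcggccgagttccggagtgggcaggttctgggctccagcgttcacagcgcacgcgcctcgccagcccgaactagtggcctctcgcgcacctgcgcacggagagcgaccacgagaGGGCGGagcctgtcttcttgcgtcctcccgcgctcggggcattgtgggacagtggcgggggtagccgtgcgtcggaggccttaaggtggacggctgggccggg
Lpcat3: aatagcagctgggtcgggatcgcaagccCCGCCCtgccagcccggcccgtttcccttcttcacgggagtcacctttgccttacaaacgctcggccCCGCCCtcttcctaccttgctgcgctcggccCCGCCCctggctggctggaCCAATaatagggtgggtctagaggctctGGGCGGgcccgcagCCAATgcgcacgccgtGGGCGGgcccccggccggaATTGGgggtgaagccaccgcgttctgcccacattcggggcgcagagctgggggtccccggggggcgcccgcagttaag
Mmp23: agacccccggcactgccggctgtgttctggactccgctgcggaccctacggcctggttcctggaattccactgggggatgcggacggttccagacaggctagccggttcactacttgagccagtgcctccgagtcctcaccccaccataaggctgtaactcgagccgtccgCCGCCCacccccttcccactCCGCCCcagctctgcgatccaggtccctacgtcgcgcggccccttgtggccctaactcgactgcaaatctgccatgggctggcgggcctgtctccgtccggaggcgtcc

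All 4 promoters held a GC box, from 1 match in Ppp6r1 to 5 in Lpcat3, and Acat1, Ppp6r1 and Lpcat3 also held CCAAT. None of the 4 held TGTGGT (the core recognised by Runx factors), TATAAA or CACGTG. Among promoters of 8379 tested genes, GGGCGG was present in 61.7%, CCAAT in 37.9%, TGTGGT in 12.4%, CACGTG in 9.66% and TATAAA in 7.34%. Of the 15 genes named as higher below, 13 had a promoter in the RefSeq table, of which 12 held GGGCGG, 8 CCAAT and 0 TGTGGT. Of the 15 named as lower, 12 had one, of which 8 held GGGCGG, 2 CCAAT and 2 TGTGGT. These matches are a description of letters only.

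A wider group of transcripts, the 5 called ones among them, lay without overlap between the types. In 475 probe sets (2.46% of those tested) all 6 expressing colonies lay above all 3 neither colonies, and in 531 (2.75%) all 6 lay below. The gap between the groups was usually small, with a median of 0.188 for the higher and 0.172 for the lower probe sets. It was at least 1 log2 unit in 12 and 6 of them. In 219 of the 475 both osteocalcin types exceeded the neither mean by at least 1 log2 unit, and in 146 of the 531 both were at least 1 below it. The higher probe sets were bright: 54.5% had a mean level above the 75th percentile of their arrays, against 31.4% of all tested. Of the lower ones 15.1% were. Neither III was the neither colony farthest from the expressing colonies in 222 of the 475 and in 300 of the 531. The filter let a probe set in through 3 bright arrays, and the neither group has 3. Of the 531 lower probe sets, 60 (11.3%) were above the array median in 0 of the 6 expressing colonies, against 62 (0.321%) of all tested. They passed only through the group where they were high, so their direction is no support for a difference. Of the 475 higher ones, 127 (26.7%) were above it in 0 of the 3 neither colonies, against 813 (4.21%) of all tested. Their direction is likewise no support for a difference. With a filter on 6 of 9 arrays the counts were 408 higher and 333 lower.

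The balance of higher against lower depended on the scaling. The chips share 100 probe sets, and these gave a median difference of 0.16 on chip A and 0.82 on chip B in the same colonies. Of the 98 tested on both, 68 were higher in the expressing colonies on chip A and 97 on chip B, and 3 against 30 did not overlap. The 3 that separated the groups on both chips were Sumo2 (a small ubiquitin-like modifier, 0.9 and 1.37), Arf1 (a GTPase of vesicle traffic, 1.23 and 1.7) and mrpl11 (a mitochondrial ribosomal protein, 1.03 and 1.14). These 3 are outside the naming rule and were chosen after their values were seen. When arrays were instead scaled to an equal median over the 100, the median difference of all probe sets became -0.36, 132 probe sets were higher without overlap and 1824 lower. Under that scaling 0 probe sets were called, and Acat1, Ppp6r1 and Lpcat3 differed by 1.75, 1.78 and 1.73 (limma adjusted p = 0.0645 for each). Of the 475, 130 remained higher without overlap, 105 of them on chip A, and of the 531, 526 remained lower. Of the 15 named higher genes, 13 kept their separation; Mmp23 and Mzt2b did not, although both kept their direction.

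The 15 named genes with the smallest p among the higher ones were the 4 above and 11 with adjusted p from 0.0544 to 0.0712, which did not pass. Of the 15, 8 were above the array median in 0 of the 3 neither colonies and so passed the filter only through the expressing colonies: Acat1, Ppp6r1, Lpcat3, Fxr2, Fkbp2, Cped1, Nf2 and Caap1. Among list members described below the same holds for Ndufv1, Ctsz and Pnpla2, as it does for the unnamed 1379263_at. The direction of all of these is given as a description. Cst3 encodes cystatin C, a secreted inhibitor of cysteine cathepsins. Its level was 13.87, 14.53 and 14.81 in the expressing colonies, and 12.75, 11.95 and 12.98 in neither I, II and III. It was thus among the bright transcripts (mean 96.8 percentile) and did not overlap, with a difference of 1.93 (SE 0.319, limma adjusted p = 0.0581). Fkbp2, a prolyl isomerase of the endoplasmic reticulum, was at 10.51, 11.29 and 11.77 against 9.26, 8.42 and 9.51. Its difference was 2.19 (SE 0.355, adjusted p = 0.0576), and 2 brighter probe sets of the gene gave 1.08 and 0.56. Chmp4c, a subunit of the membrane-cutting ESCRT-III complex, differed by 1.75 (SE 0.335).

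Pold4, the small subunit of DNA polymerase delta, was at 12.22, 12.5 and 13.01 in the expressing colonies, and at 10.82, 10.95 and 10.99 in neither I, II and III. The neither colonies were again close to each other and 1.23 below the lowest expressing colony (difference 1.65, SE 0.259, limma adjusted p = 0.0544). Snrpd1, a core protein of the spliceosome, was at 12.32, 12.64 and 13 against 11, 11.01 and 11.08 (difference 1.6, SE 0.306, adjusted p = 0.0701), and its other probe set gave 0.18. Trex1, a DNA exonuclease, and Fxr2, an RNA-binding protein of the FMR1 family, differed by 1.82 (SE 0.355) and 1.7 (SE 0.274). Mzt2b, a component of gamma-tubulin complexes, Cped1 and Caap1 had larger differences, of 2.24 (SE 0.394), 2.39 (SE 0.439) and 2.24 (SE 0.435). Nf2, which encodes the tumour suppressor merlin, differed by 1.81 (SE 0.301), but its other probe sets gave -1.16 and -0.75.

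**Figure D1:**
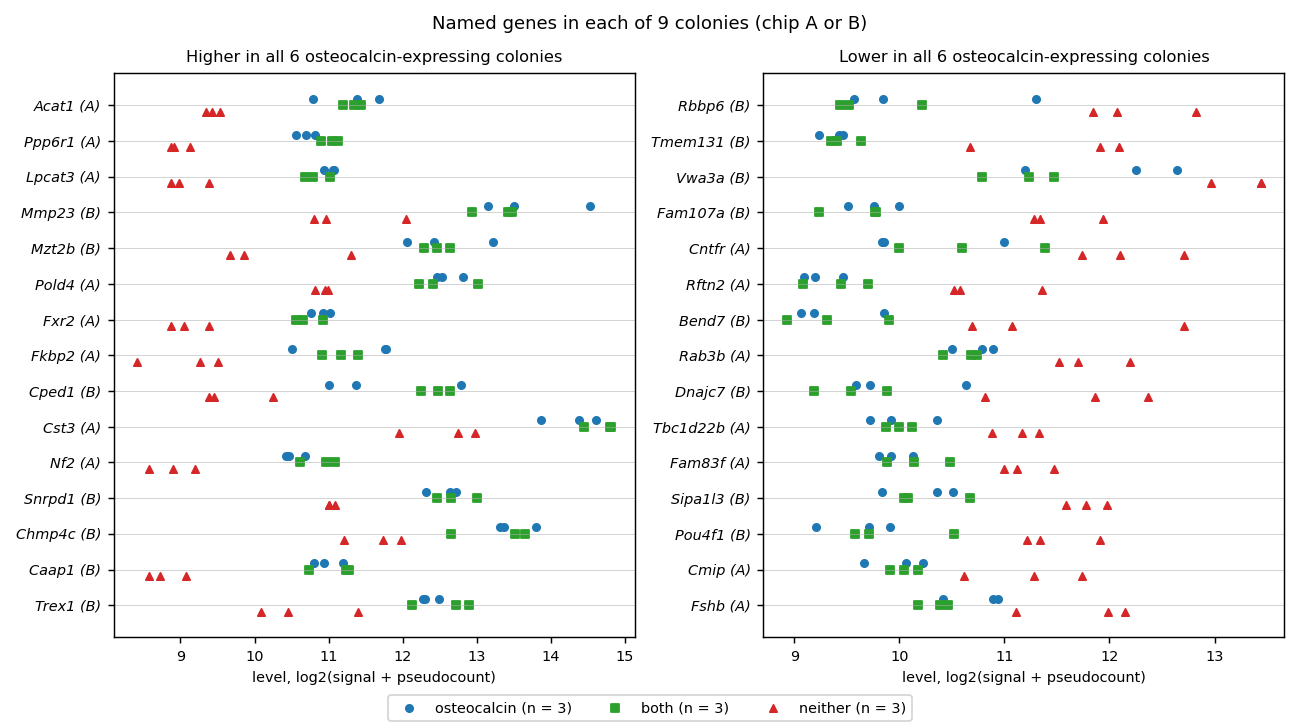
Level of the 15 higher and 15 lower named genes in each of the 9 colonies, as log2(signal + pseudocount) on the horizontal axis; points are single colonies and A or B is the chip. In every row the 6 osteocalcin-expressing colonies (circles and squares) lie on 1 side of the 3 neither colonies (triangles), as the naming rule requires; the gap is widest for Caap1 (1.65) among the higher genes.

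The 15 named lower genes had adjusted p from 0.121 to 0.251, so none was called. Of these, Tmem131, Fam107a, Rftn2 and Bend7 were above the array median in 0 of the 6 expressing colonies and were tested only because the 3 neither colonies were above it. Rbbp6, Dnajc7 and Pou4f1 were above it in 1 of the 6 and also passed the filter only with the neither colonies. The direction of all of these follows from that choice and is given as a description. Cntfr, the receptor of ciliary neurotrophic factor, was at 9.83, 10.3 and 11.39 in the expressing colonies, and at 12.1, 11.74 and 12.71 in neither I, II and III. Its highest expressing colony, both III, was 0.35 below the lowest neither colony (difference -1.74, SE 0.387, limma adjusted p = 0.213). Fam107a, an actin-associated protein induced by glucocorticoids, was at 9.23, 9.77 and 10 against 11.94, 11.28 and 11.34. Its gap of 1.27 was the widest of the 15 (difference -1.84, SE 0.441, adjusted p = 0.213). Rab3b, a GTPase of regulated secretion, differed by -1.14 (SE 0.261). Pou4f1, a transcription factor of sensory neurons, differed by -1.71 (SE 0.455), and Fshb, a subunit of a pituitary hormone, by -1.21 (SE 0.305).

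Several of the larger differences belonged to probe sets whose genes gave other values elsewhere on the chips. Rbbp6, a ubiquitin ligase that binds the retinoblastoma protein, was at 9.43, 9.7 and 11.3 against 12.07, 11.84 and 12.82 (difference -2.26, SE 0.476, limma adjusted p = 0.121). Its 3 other probe sets gave -1.02, 0.97 and 0.16. Tmem131 was at 9.23, 9.42 and 9.63 against 11.91, 10.67 and 12.09 (difference -2.14, SE 0.47, adjusted p = 0.148), and its others gave 0.07 and 0.19. Dnajc7, a co-chaperone, differed by -1.92 (SE 0.485) and its other probe set by 0.16. Of the 5 lower genes with other probe sets, 4 had at least 1 in the opposite direction. Bend7, Vwa3a, Sipa1l3, Rftn2, Cmip, Fam83f and Tbc1d22b differed by -2.12 to -1.13. The lower genes had a median percentile of 60.2 on their arrays and the higher ones of 68, and the dim signal of the neither arrays given above was higher; its part was not tested.

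The genes higher in the pooled comparison had similar levels in both osteocalcin types. Against the same 3 neither colonies, the osteocalcin and the both colonies differed by 1.84 and 1.88 for Acat1, 1.94 and 1.75 for Lpcat3, 1.71 and 2.05 for Ppp6r1 and 2.45 and 2.01 for Mmp23. Between the types, both minus osteocalcin was 0.04 for Acat1 (95% interval -0.67 to 0.75) and -0.19 for Lpcat3 (-0.9 to 0.51). It was 0.34 for Ppp6r1 (-0.36 to 1.04) and -0.45 for Mmp23 (-1.38 to 0.49). These intervals include 0 and also differences of up to 1.38, so a moderate difference between the types was not detectable with 3 colonies each. Of the 30 named genes, the smallest unadjusted p between the types was 0.0553, for Vwa3a. In the fit with 3 types, limma called 0 probe sets (0%) between both and osteocalcin (654 at an unadjusted p under 0.05), 0 (0%) between osteocalcin and neither (1450) and 0 (0%) between both and neither (1883). The naming rule favours genes with little spread among the 6 colonies, so the likeness of the types in these genes is partly the rule's own.

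**Figure D2:**
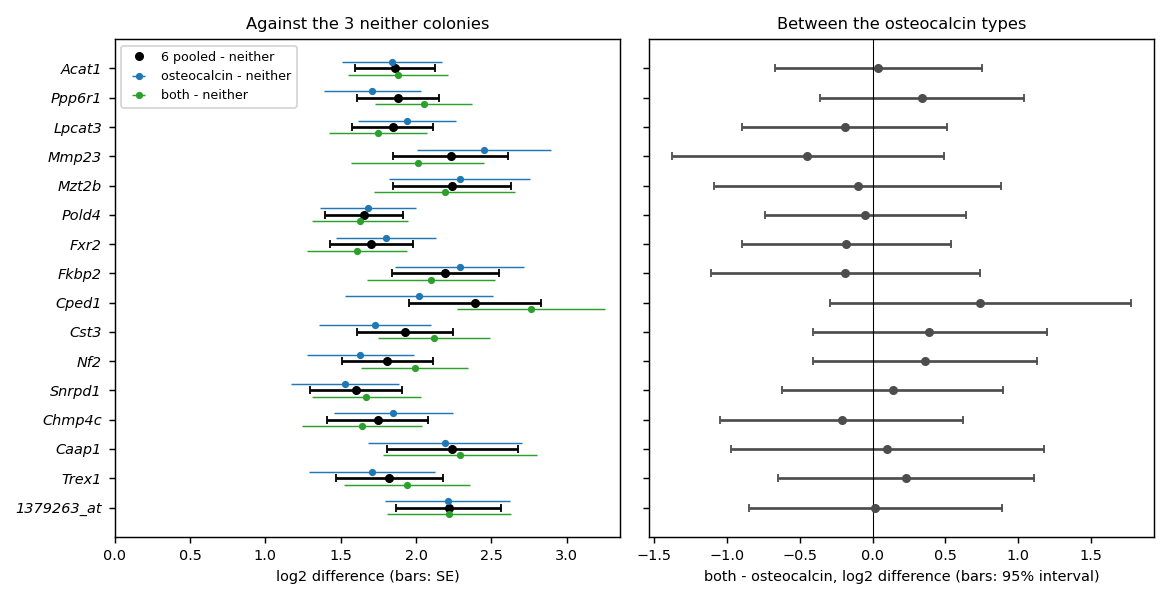
Left, log2 difference from the 3 neither colonies of the 6 pooled colonies (black), the 3 osteocalcin colonies (blue) and the 3 both colonies (green), with standard errors, for the 15 higher genes and 1379263_at; right, both minus osteocalcin with 95% intervals. The differences on the left lie between 1.53 and 2.76, and every interval on the right includes 0.

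Genes of mitochondrial carbon metabolism leaned to higher levels in the expressing colonies. A list of citrate cycle, fatty acid oxidation and ketone genes had 36 tested members, of which 32 (88.9%) were higher, with a median difference of 0.35. Of 10080 genes with 1 probe set each, 53.7% were higher and the median was 0.05. One member, Acat1, was called. Acat1, Hadh, Idh3g and Mdh1 were higher without overlap and Cpt1a lower, 11.1% and 2.78% of the list, against 2.74% and 2.62% of the 10080 genes. The mean level of the list was 11.47 to 11.65 in the 6 expressing colonies and 11.19, 11.17 and 11.18 in neither I, II and III. No expressing colony overlapped the neither colonies, whose values were nearly equal. The list was chosen with earlier results on Acat1 known, and Acat1 passed the filter only through the expressing colonies. The call and the share of 11.1% are therefore no support for a difference. Of the 35 members not named before, 3 were higher and 1 was lower without overlap.

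Among its members, Mdh1, the cytosolic malate dehydrogenase, was at 14.24 to 14.89 in the expressing colonies and at 13.89, 13.54 and 13.61 in the neither colonies. Its difference was 0.84 (SE 0.272, limma adjusted p = 0.322). Idh3g, a subunit of mitochondrial isocitrate dehydrogenase, differed by 1.11 (SE 0.334, adjusted p = 0.284), with neither III at 9.97 and neither I and II at 11.28 and 11.08. Hadh, an enzyme of fatty acid oxidation, differed by 1.02 (SE 0.287, adjusted p = 0.275) and overlapped under the scaling to the 100 shared probe sets. Cpt1a, which admits long-chain fatty acids to mitochondria, went the other way: it was at 10.34 to 11.04 in the expressing colonies and at 11.72, 11.33 and 12.29 in neither I, II and III (difference -1.07, SE 0.293, adjusted p = 0.27). Cs, the citrate synthase, was near 0 with -0.06 (SE 0.283). Of the 36 members 35 were on chip A. The list median was 0.17 under the scaling to the 100 shared probe sets, where that of all chip A probe sets was -0.14 (-0.36 over both chips). It was -0.17 with the signals as deposited, where that of all chip A probe sets was -0.46 (-0.23 over both chips). In the deposited signals the chip A array of osteocalcin I kept its trimmed mean of 64.4. The lists below also had most members on chip A, so these chip A medians are their background too.

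The respiratory chain and glycolysis showed smaller shifts. Of 67 oxidative phosphorylation genes 44 (65.7%) were higher, with a median of 0.21 and 0 calls. The median of the list was 0.06 under the scaling to the 100 shared probe sets and -0.43 with the signals as deposited. It was 0.33 in the osteocalcin colonies and 0.01 in the both colonies against neither. Ndufv1, Ndufv2 (core subunits of complex I) and Uqcr11 (of complex III) were higher without overlap, 4.48% of the list against 2.74% of the 10080 genes. Ndufv1 and Ndufv2 were known from earlier results of these data when the list was chosen, so this share is no support for a difference. Of the 64 members not named before, 1 was higher without overlap. Ndufv1 also passed the filter only through the expressing colonies. Ndufv1 was at 10.64 to 11.34 in the expressing colonies and at 9.35, 9.81 and 8.4 in neither I, II and III (difference 1.72, SE 0.332, limma adjusted p = 0.125). Ndufv2 rested more on 1 colony: it was at 12.9 to 14.04 against 12.03, 9.65 and 12.86, with neither II lowest. Its difference was 1.77 (SE 0.536, adjusted p = 0.284) and 0.84 without neither II, and it overlapped under the shared scaling and under quantile normalization. Of 17 glycolysis genes 14 (82.4%) were higher, with a median of 0.31, or 0.18 under the shared scaling and -0.18 with the signals as deposited. Aldoa and Gpi were higher without overlap, 11.8% of the list against 2.74% of the 10080 genes, and 0 members were called. Gpi differed by 0.4 (SE 0.25, limma adjusted p = 0.546), with osteocalcin I at 11.44 and neither I at 11.42. Aldoa, the muscle-type aldolase, was at 14.09 to 15.02 against 13.58, 14.03 and 13.74 (difference 0.65, SE 0.3, adjusted p = 0.438), so that osteocalcin I was only just above neither II; with the signals as deposited its difference was -0.04, and it overlapped under the shared scaling and quantile normalization. Ldha, lactate dehydrogenase A, differed by 0.95 (SE 0.334, adjusted p = 0.35) and overlapped.

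The cathepsin, cystatin and protease list had the highest median difference of the 21 lists, 0.42. It was 0.28 under the shared scaling and -0.1 with the signals as deposited. Of 31 tested cathepsin, cystatin and protease genes 24 (77.4%) were higher, and 6 (19.4%) were higher without overlap, against 2.74% of the 10080 genes: Cst3, Ctsa, Ctsk, Mmp23 on chip A, Mmp19 and Ctsz. None of these passed the threshold in the list's own probe sets. Ctsa, the lysosomal carboxypeptidase cathepsin A, was at 13.41 to 14.54 in the expressing colonies and at 12.79, 11.84 and 12.47 in neither I, II and III (difference 1.61, SE 0.317, limma adjusted p = 0.139). Ctsk, a collagen-degrading cysteine protease best known from osteoclasts, was at 13.28 to 14.69 against 12.39, 12.52 and 11.92 (difference 1.58, SE 0.338, adjusted p = 0.206). Both were bright, at the 96 and 95.6 percentiles. Ctsd, the aspartic protease cathepsin D, differed by 1.21 (SE 0.343) with neither I at 12.62 inside the range of the expressing colonies. Bmp1, the procollagen C-proteinase, differed by -0.72 (SE 0.301). The mean of the list was 12.08 to 12.64 in the expressing colonies and 11.75, 12.01 and 11.67 in the neither colonies, without overlap. The list was chosen with earlier results on Cst3 and Mmp23 known, so the share of 19.4% is no support for a difference. Of the 29 members not named before, 4 were higher without overlap. Ctsz, among them, passed the filter only through the expressing colonies.

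The osteoclast and macrophage list, which also holds Ctsk, did not follow it. Of its 13 tested members 5 were higher, and its median was -0.43. Ptprc, the pan-leukocyte marker CD45, was above the array median in 0 of 9 colonies with either probe set. Cd68 was above it in 3 colonies and Csf1r, the receptor of macrophage colony-stimulating factor, in 8 and differed by -0.46. The mean of the list was 10.08 to 10.82 in the expressing and 10.45 to 10.53 in the neither colonies.

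Genes of the secretory pathway had a median difference of 0.24, and 27 of 39 (69.2%) were higher. The median was 0.09 under the shared scaling and -0.43 with the signals as deposited. Neither I did not share this: the list's mean was 12.95 to 13.24 in the expressing colonies, 13.18 in neither I, 12.6 in neither II and 12.41 in neither III. P4hb, protein disulfide isomerase, illustrates it, at 14.99 to 15.16 in all 6 expressing colonies, 15.18 in neither I, and 12.51 and 13.39 in neither II and III (difference 1.37, SE 0.449, limma adjusted p = 0.322). Fkbp2 and Ssr2, a subunit of the translocon-associated complex, were higher without overlap, 5.13% of the list against 2.74% of the 10080 genes. Fkbp2 was known from earlier results of these data and passed the filter only through the expressing colonies. This share is therefore no support for a difference. Of the 38 members not named before, 1 was higher without overlap. Ssr2 differed by 1.24 (SE 0.353, adjusted p = 0.278) and overlapped under the shared scaling and quantile normalization. Creb3l1, a transcription factor of collagen secretion in osteoblasts, differed by -0.97 (SE 0.332, adjusted p = 0.341).

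**Figure D3:**
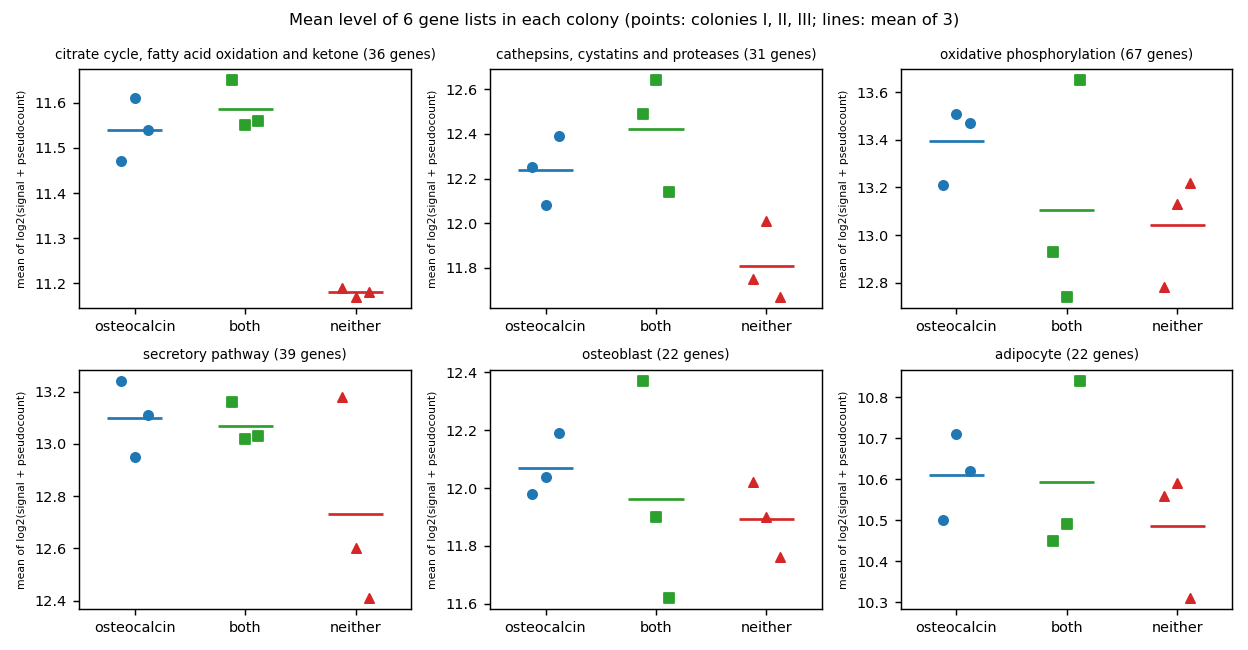
Mean level of 6 gene lists in each colony, as the mean of log2(signal + pseudocount) over the tested members; points are colonies I to III of each type, lines the mean of 3, and the vertical axes do not start at 0. The citrate cycle list (11.47 to 11.65 against 11.17 to 11.19) and the cathepsin list (12.08 to 12.64 against 11.67 to 12.01) separate the 6 expressing from the 3 neither colonies, and the osteoblast and adipocyte lists do not.

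No osteoblast gene was called. Of 34 listed genes 22 were tested, 10 (45.5%) were higher and 0 lay without overlap, against 2.74% higher and 2.62% lower of the 10080 genes. The median was -0.11, and 0.12 under quantile normalization. The mean of the list was 11.62 to 12.37 in the expressing and 11.76 to 12.02 in the neither colonies. Cthrc1, a secreted protein of the bone and vessel matrix, had the smallest p of the list: it was at 14.57, 16.32 and 17.98 in the expressing colonies, and at 12.81, 15.52 and 13.2 in neither I, II and III. Neither II lay above the expressing colonies osteocalcin II and both III (difference 2.45, SE 0.763, limma adjusted p = 0.284). Sparc (osteonectin) differed by 0.72 (SE 0.375), and by -0.02 with the signals as deposited. Spp1 (osteopontin), Col1a1 and Col1a2 were bright in all groups and differed by -0.28 (SE 0.731), -0.44 (SE 0.635) and 0.03 (SE 0.694).

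In the wider matrix list 31 of 54 genes (57.4%) were higher, with a median of 0.1. Bgn alone lay without overlap, 1.85% of the list against 2.74% of the 10080 genes in that direction, a share near the background. Bgn, which encodes the small proteoglycan biglycan, was at 12.66, 13.37 and 14.27 in the expressing colonies, and at 12.26, 11.54 and 10.21 in neither I, II and III (difference 2.04, SE 0.451, limma adjusted p = 0.213). Efemp2, an elastic fibre protein, was at 12.47 to 14.84 against 12.42, 12.86 and 12.39. Its difference was 1.55 (SE 0.46, adjusted p = 0.275), 0.91 in the osteocalcin colonies and 2.19 in the both colonies. Osteocalcin III was below neither II. Thbs2, thrombospondin 2, was at 10.56 to 15.37 against 9.86, 14.84 and 9.53, so neither II was above 5 of the 6 expressing colonies. Fbln1, fibulin 1, differed by -1.43 (SE 0.512, limma adjusted p = 0.352). It was above the array median in 1 of the 6 expressing colonies and passed the filter only with the neither colonies.

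Of 22 adipocyte genes 13 (59.1%) were higher, with a median of 0.17. Pnpla2, the first lipase of fat breakdown, and Dgat1, which completes triglyceride synthesis, were higher without overlap, 9.09% of the list against 2.74% of the 10080 genes. Both were known from earlier results of these data when the list was chosen, so this share is no support for a difference. Of the 19 members not named before, 0 were higher without overlap. Pnpla2 also passed the filter only through the expressing colonies. The median of the whole list was -0.07 under the shared scaling and -0.14 with the signals as deposited. Pnpla2 was at 9.67 to 10.56 in the expressing colonies and at 8.78, 9.09 and 9.39 in neither I, II and III (difference 1.05, SE 0.347, limma adjusted p = 0.325). Dgat1 was at 10.72 to 12.4 against 10.57, 9.68 and 10.63 (difference 1.04, SE 0.388, adjusted p = 0.366) and overlapped under the shared scaling. The difference was 1.1 and 1 for Pnpla2, and 1.09 and 1 for Dgat1, in the osteocalcin and the both colonies. Pparg and Adipoq, the regulator and a secreted marker of adipocytes, differed by 0.35 and 0.25. Fabp4 was above the array median in 1 colony and was not tested.

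**Figure D4:**
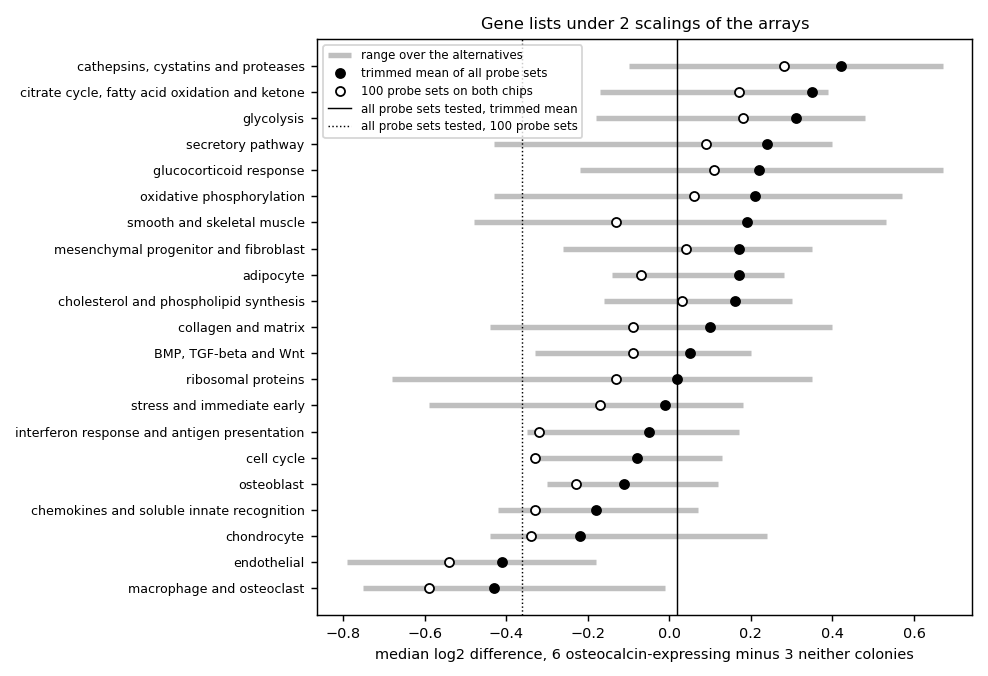
Median log2 difference (6 osteocalcin-expressing minus 3 neither colonies) of 21 gene lists under the trimmed-mean scaling (filled) and under scaling to the 100 probe sets on both chips (open); grey bars span all alternatives and the lines mark the median of all probe sets (0.02, and -0.36 dotted). The cathepsin list is highest under both (0.42 and 0.28) and the macrophage and osteoclast list lowest (-0.43 and -0.59). The lines pool both chips, while most list members are on chip A, where the median of all probe sets was -0.01 and -0.14.

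Markers of other cells that a calvaria colony could hold were checked over their whole lists. Endothelial genes had 7 tested members, of which 1 was higher, with a median of -0.41. The defining markers Pecam1 and Kdr on chip A were above the array median in 0 of 9 colonies. The list's mean was 9.91 to 10.35 in the expressing colonies and 10.46, 10.04 and 11.06 in neither I, II and III. Muscle genes had 15 tested members, of which 8 were higher, with a median of 0.19 and means of 11.15 to 13.67 against 11.79 to 13.12. Actg2, smooth muscle gamma actin, was at 9.46 to 15.35 in the expressing colonies and at 8.91, 10.27 and 14.23 in neither I, II and III (difference 2.04, SE 1.25, limma adjusted p = 0.539). Cartilage genes had 8 tested members, 3 of them higher. The defining marker Col2a1 differed by -0.14 (SE 0.328) with the list's chip A probe set. Its chip B probe set lay at the 39.5 to 59.8 percentiles in the expressing colonies and at 66 to 80.7 in the neither colonies, without overlap. The other probe sets of Col2a1, Acan and Sox9 overlapped by percentile. Mesenchymal progenitor and fibroblast genes had 16, 9 of them higher. Cntfr was lower without overlap, 6.25% of the list against 2.62% of the 10080 genes. It was known from earlier results of these data, so this share is no support for a difference. Of the 15 members not named before, 0 were lower without overlap. The part of other cell types in the differences was not tested.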

How the data were processed

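The authors deposited 1 intensity per probe set, on a linear scale, computed with MAS5 per the submitters' processing notes, which name no version. Because 1 deposited array had another scale, every array was rescaled to a 2%-trimmed mean of 1500. Levels are log2(signal + pseudocount), the pseudocount being 238.7 for chip A and 336.2 for chip B. Tested were probe sets above the median of their array in 3 or more of the 9 colonies, with Bglap and Cfd exempt and 57 controls a chip left out. Symbols came from the platform annotation, and none from a probe set with several.

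Limma 3.58.1 (R 4.3.3) was run on each chip, with moderated two-sided tests, an intensity trend and 7 residual degrees of freedom (6 in the fit with 3 types). Benjamini-Hochberg adjustment ran over the probe sets of both chips. The steps were tested on simulated data. Up to 15 genes per direction were named, by smallest p among single-symbol probe sets without overlap between the groups, then both markers and 3 members of each of 21 lists (1 probe set per gene, chip A first). The groups, members and lists were chosen with earlier results of these data known. Promoters are from RefSeq (GRCr8). Figures were drawn in Python with matplotlib. Alternatives are in the closing section.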

Additional observations from a re-analysis of the deposited data

Results flagged for a closer look

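Each of 87 reported values was examined for a colony far from the others among the 6 osteocalcin-expressing colonies, and 2 had one; chance flags about 1 in 20 groups. Mmp23 (chip B) was at 14.52 in osteocalcin III, where the next highest colony was at 13.5. Without osteocalcin III its difference was 2.03 instead of 2.23, and it no longer passed limma's threshold. Cenpf, a kinetochore protein of dividing cells, was at 11.91 in both II, where the next highest was at 11.04; without both II its difference was 0.91 instead of 1.08. Groups of 3 were not examined in this way.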

How the results depend on the processing

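The count of 5 calls depended on the settings. It was 0 with 3 group means, the signals as deposited, a pseudocount 4 times larger, array weights, no intensity trend, a block for fluidics station, hybridization day or chip lot, scaling to the 100 shared probe sets, and the mean of all probe sets of a gene. It was 4 with a pseudocount of 1, 6 with no filter (2 higher), 8 with robust eBayes, 10 with quantile normalization, 13 with a filter on 6 of 9 arrays, and 1 without osteocalcin I and neither III, a probe set not among the 5. With the replicate number as a block it was 2 (1379263_at and Mmp23); the numbers do not pair the colonies, since deviations of the 9 same-numbered pairs correlated by -0.15 to 0.325 (chip A) and by -0.087 to 0.189 (chip B). Leaving out 1 colony gave 0 to 32 calls. Calls between both and osteocalcin were 0, but 1 with the signals as deposited, 2 with the larger pseudocount, robust eBayes or the replicate block, 88 with array weights, and 0 to 1 leaving out 1 colony. Probe sets without overlap were 1006 in all, 1587 with no filter (529 higher, 1058 lower), 741 with the filter on 6 of 9 arrays (408 and 333), 1956 with the shared scaling (132 and 1824), 2419 without osteocalcin I and neither III, 546 of 10080 genes by the mean of probe sets, and 1127 to 3265 leaving out 1 colony, which by construction cannot lower them. They were 286 higher and 568 lower with the signals as deposited and 483 and 380 with quantile normalization. Of 2243 gene comparisons with an alternative, 2111 kept direction and side of the threshold, 99 lost and 27 gained a call, and 6 reversed, all for genes that were not called: Sparc (-0.02), Aldoa (-0.04) and Rpl4 (-0.03) with the signals as deposited, Tek (-0.2) with the shared scaling, Cfd without neither I (-0.05; -0.05 to 0.27 leaving out 1 colony), and Nf2 (-0.03) as a mean of its probe sets. With the signals as deposited, the chip A array of osteocalcin I kept its trimmed mean of 64.4 where the others had 1500. All chip A probe sets, among them those of Sparc, Aldoa and Rpl4, then had a median difference of -0.46. The cause of the reversals was not tested. The shared scaling, the chip lot block and the pair left out were chosen after seeing the data.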

Other observations

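Among lists not described above, 27 cell cycle genes had a median difference of -0.08. Ttk, a kinase of the spindle checkpoint, was at 9.09 to 9.68 in the expressing colonies and at 10.73, 10.85 and 11.66 in neither I, II and III (difference -1.66, SE 0.463, limma adjusted p = 0.262). It was above the array median in 0 of the 6 expressing colonies and was tested only through the neither colonies, as was Cd74 below, so the direction of both is no support for a difference. Mcm5, of the replicative helicase, was lower without overlap (-0.77, SE 0.279). Tyms, thymidylate synthase, was higher without overlap (0.84, SE 0.39), with 0 of the 3 neither colonies above the array median. The list thus had 1 member higher and 2 lower without overlap, 3.7% and 7.41%. Of the 10080 genes, 2.74% and 2.62% were. Ttk and Tyms each passed the filter through 1 group only, so these shares are no support for a difference. Of 40 ribosomal protein genes 22 were higher, with a median of 0.02. Rps3 (0.8, SE 0.306) and Rpl6 (1.08, SE 0.414) were higher without overlap, 5% of the list against 2.74% of the 10080 genes. Rps3 overlapped under the scaling to the 100 shared probe sets and Rpl6 under that and quantile normalization. Rpl6 differed by 0.44 without neither II and by 0.35 with the signals as deposited. Hspa1a, an inducible heat shock protein, was at 10.56 to 11.66 against 12.37, 11.81 and 11.84 (difference -0.87, SE 0.291, adjusted p = 0.331; -0.35 with fluidics station as a block), in a stress list of 25 with a median of -0.01.

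In the interferon and antigen presentation list of 25, Ifi27, an interferon-induced gene, was at 14.71 to 15.49 against 13.7, 14.27 and 13.93 (difference 1, SE 0.291, limma adjusted p = 0.283). Cd74, the invariant chain of class II presentation, was at 9.08 to 9.93 against 10.53, 10.26 and 10.91 (difference -1.09, SE 0.334, adjusted p = 0.296). Of 30 chemokine and soluble recognition genes 9 were higher, with a median of -0.18; Mbl2, a mannose-binding lectin, differed by -1.68 (SE 0.438, adjusted p = 0.262), and by -0.8 with the station block. In the cholesterol and phospholipid list of 26, which holds Lpcat3, Nsdhl of sterol synthesis was at 13.1 to 13.53 against 12.51, 12.47 and 12.47 (difference 0.81, SE 0.296, adjusted p = 0.348); it overlapped under the shared scaling. Mboat7, another phospholipid acyltransferase, was at 11.19 to 11.75 against 11.86, 11.88 and 11.87 (difference -0.38, SE 0.244, adjusted p = 0.562). The BMP, TGF-beta and Wnt list of 37 had a median of 0.05 and the glucocorticoid response list of 14 of 0.22, with 0 calls by limma in either; 3 and 3 members had an unadjusted p under 0.05.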
